A study of Mus musculus with 8 samples.

Results

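The genes described here are 33 genes of the foregut endoderm and of epithelia, chosen by name from the 48526 genes of a count table of mouse heart fields, the regions of the embryo that supply cells to the heart tube. All 33 were found in the table. Each of 4 wild-type male C57bl6/J embryos at E8.5f (L29-3, L43-5, L46-8 and L49-3) gave a library of its left heart field and a library of its right one, which makes 8 libraries in 4 pairs. No group was mutant or treated. The tissue was taken from below the headfolds to the second somite, the heart and the back were removed, and the rest was cut along the midline.

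The foregut endoderm is an epithelial tube that lies next to the heart field and later gives rise to the pharynx, thyroid, lung, liver and pancreas. Its cells are patterned by FOXA, SOX17 and other transcription factors, and, like other epithelia, they are joined by claudins in tight junctions, carry the adhesion molecule EPCAM and are filled with simple keratins. In a heart field dissected as a block, RNA of these genes is therefore sequenced together with RNA of mesoderm. In such bulk libraries, fewer cells of a type and less RNA per cell cannot be told apart.

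Totals lay between 1147446 and 3520753 counts per library, and both libraries of L49-3 were the smallest. Where a gene is given in every library below, its normalized counts stand as pairs, left then right, for L29-3, L43-5, L46-8 and L49-3. The heart field label was met by its markers, 11 of 12 lateral mesoderm genes being high enough to be tested, with summed levels from 948 to 1777 normalized counts, that is, counts divided by DESeq2's size factor of the library. Cardiomyocyte genes summed to between 841 and 6732, with both extremes on the left, in L49-3 and L29-3. Epithelial markers of the surface ectoderm were low by comparison, at 85.4 to 200.5 for 10 genes, of which 2 were tested. These were *Tfap2a*, with 473 reads in all libraries together, and *Wnt6*, with 194. The lowest of the 10 was the keratin *Krt14*, with 3. Endothelial genes summed to between 525 and 919, neural tube genes to between 311 and 912, and genes of the notochord, node and floor plate to between 162 and 314.

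As a group, the 33 genes held between 0.125% and 0.175% of the reads of a library and summed to between 2400 and 3268 normalized counts, 29 of them having reads in all 8 libraries. The mean was at least 100 normalized counts in 6 genes, between 20 and 100 in 19, and under 20 in 8. The 25 genes that reached 20 normalized counts in at least 4 libraries were tested, and the other 8, *Hnf4a*, *Esrp2*, *Elf3*, *Foxa3*, *Cldn3*, *Nepn*, *Cdx2* and *Nkx2-1*, were not. The plot of all 33 genes shows this order from *Krt8* to *Nkx2-1*.

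**Figure D1:**
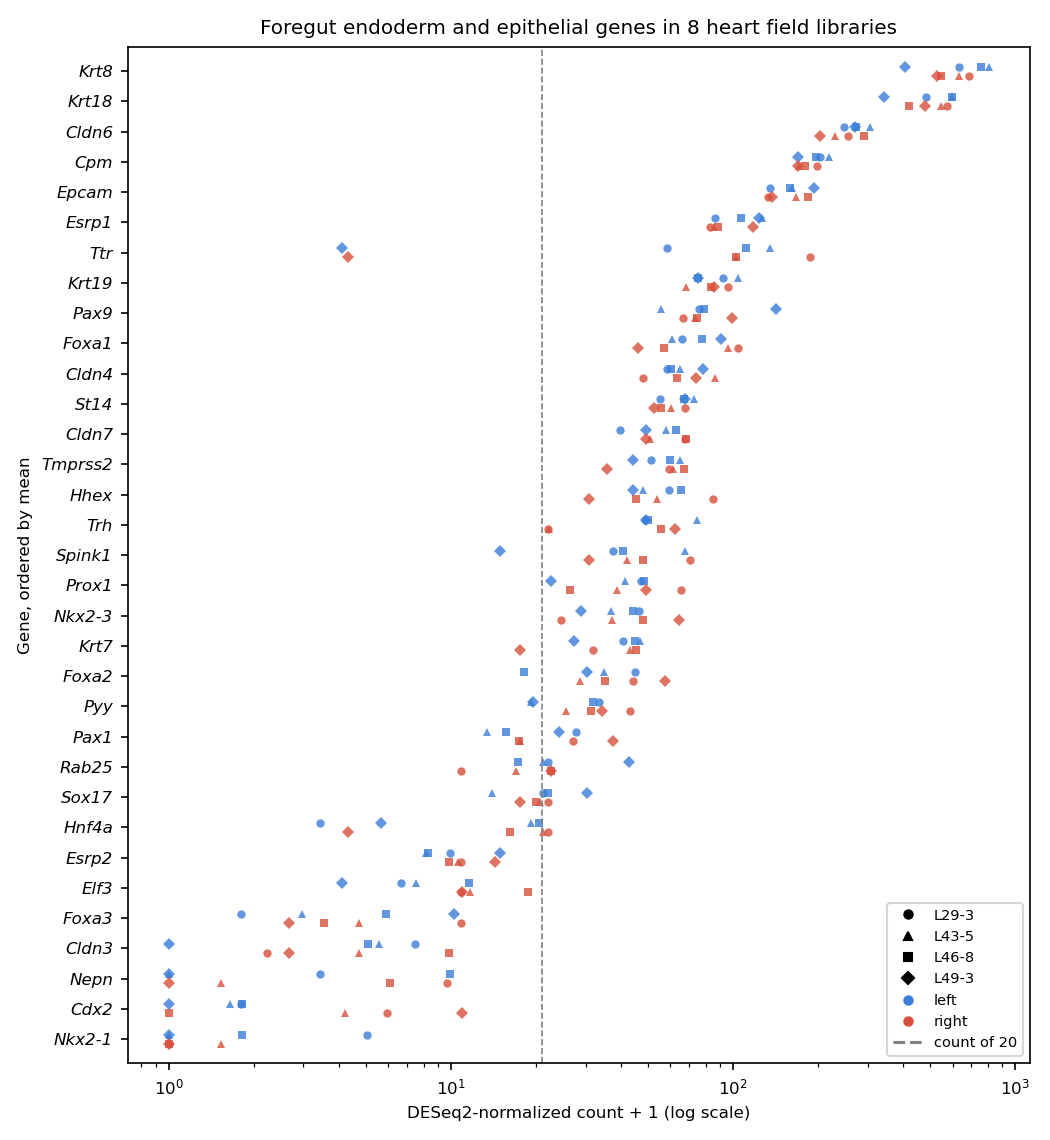
Each row is a gene, ordered by its mean, and each point is the DESeq2-normalized count plus 1 of 1 library on a log axis, blue for left, red for right, with a shape for each embryo. Most rows are narrow and both colours are mixed, *Ttr* has both L49-3 libraries far below the other 6, and the last 8 rows lie mostly under the dashed line at a count of 20.

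The keratins led the list. *Krt8* and *Krt18* encode the type II and type I partners of the intermediate filaments of simple epithelia, and their genes (ENSMUSG00000049382 and ENSMUSG00000023043) are neighbours on chromosome 15 of GRCm38, at 101996698-102004482 and 102028180-102032027, with 23697 bases between them. *Krt8* was at 633 and 685, 807 and 631, 759 and 546, and 407 and 528 normalized counts in the pairs. *Krt18* was at 482 and 572, 597 and 544, 598 and 420.0, and 342 and 477. Both genes were lowest in the left library of L49-3, and the left side was the higher one in 2 of 4 embryos for each. The ratio of *Krt8* to *Krt18* stayed between 1.11 and 1.35 in all 8 libraries, with a mean of 1.24 ± 0.085 (SD, n = 8 libraries). The pair took between 31.2% and 43.5% of the reads on the 33 genes.

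**Figure D2:**
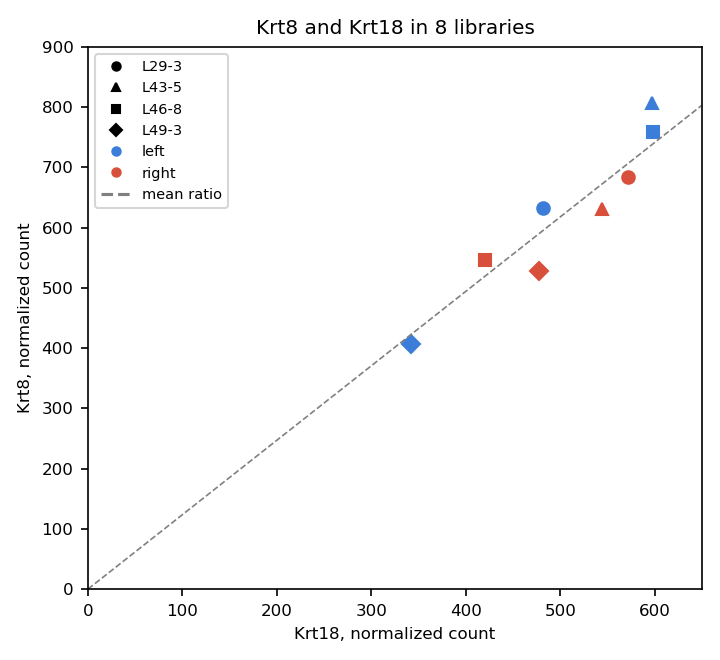
Each point is 1 library, with the normalized count of *Krt18* on the horizontal axis and of *Krt8* on the vertical axis, coloured by side and shaped by embryo. The 8 points lie close to the dashed line of the mean ratio of 1.24, the left library of L49-3 being the lowest on both axes.

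The sequences upstream of *Krt8* and *Krt18*, whose transcripts were the 2 highest of the list, and of *Epcam*, whose window held 2 copies of the E-box counted next, are shown here from RefSeq (GRCm38.p6), ending at the base before the gene and read 5′ to 3′ on the strand of the gene. Capitals mark CACCTG or its reverse complement CAGGTG, an E-box that repressors of the Snail and Zeb families are known to bind.
Krt8, chr15:102004483-102004592, minus strand: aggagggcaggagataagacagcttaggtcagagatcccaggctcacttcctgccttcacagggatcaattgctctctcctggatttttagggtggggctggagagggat
Krt18, chr15:102027966-102028179, plus strand: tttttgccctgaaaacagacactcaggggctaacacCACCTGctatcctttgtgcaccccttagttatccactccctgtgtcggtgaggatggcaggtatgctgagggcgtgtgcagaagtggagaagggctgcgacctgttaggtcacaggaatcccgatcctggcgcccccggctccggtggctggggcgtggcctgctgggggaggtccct
Epcam, chr17:87635729-87635978, plus strand: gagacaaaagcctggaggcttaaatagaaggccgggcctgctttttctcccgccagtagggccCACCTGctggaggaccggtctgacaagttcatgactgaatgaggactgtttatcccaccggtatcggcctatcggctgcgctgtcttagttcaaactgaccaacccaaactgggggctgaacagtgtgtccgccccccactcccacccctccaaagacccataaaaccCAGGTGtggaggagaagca

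The stretch before *Krt8* held no copy, and the 1 copy of its window lay in the part not shown. Windows of 300 bases, from 250 before to 50 after the start, were given for 26 of the 33 genes, and CACCTG stood on either strand in 16 of them (61.5%), compared with 22.6% of the 27025 genes with a window. *Epcam*, *Cldn4*, *Cldn6* and *Rab25* had 2 copies each, and *Cldn7* had 2 in 1 of its 2 windows. Among the further epithelial genes described below, 15 of 21 with a window held it, and among the further endoderm genes 6 of 16. The GC content also differed, with a median of 59.5% in windows of the list and 52.7% in all windows, and its part in these shares was not tested. The GC box GGGCGG was found in 17 genes (38.2% of all genes), the CCAAT box in 11 (41.1%), the TATA box TATAAA in 5 (15.7%), the FOXA motif TGTTTAC in 3, namely *Foxa1*, *Nepn* and *Cdx2* (4.05%), and the GRHL motif AACNGGTT in *Rab25* (2.35%), each searched on both strands. These letter matches were counted in the windows and were not tested as binding sites.

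The other simple keratins were lower. *Krt19*, a type I keratin of ducts and gut, had 84.0 ± 12.0 normalized counts (SD, n = 8 libraries) and ranged from 67.2 to 103. *Krt7*, a type II keratin of ducts and glands, was lower, with a range from 16.6 to 45.6 and both lowest values in L49-3. *Krt7* shares stretches of at least 90% identity over 100 bases with 41 other genes, and *Krt8* shares one with *Krt8-ps*, which had 115 reads against 5697 on *Krt8*, so that their counts could hold or lack some reads of these copies. *Krt18* likewise shares a stretch of 1267 bases with the pseudogene *Gm5200*, for which no count was given.

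Junction and surface genes came next. *Cldn6*, a claudin of embryonic epithelia, was the highest of 4 claudins, at 259 ± 33.0 normalized counts, and stayed between 203 and 306. *Cldn4* had a range from 47.0 to 85.4 and *Cldn7* from 38.9 to 67.3, whereas *Cldn3*, which lies 39279 bases from *Cldn4* on chromosome 5, had 36 reads in all and none in the left library of L49-3, where a count of 0 allows up to 2.42 CPM, a value scaled to library size (counting error only). *Cldn4* reads were between 7 and 44 times those of *Cldn3* in the other 7 libraries. *Epcam*, the adhesion molecule, was at 134 and 132, 160.4 and 166, 158 and 184, and 192 and 136. Both L29-3 values were the lowest of the 8, although the right library of L49-3 lay only slightly above them. *Rab25*, a GTPase of epithelial membrane recycling, ranged from 9.90 to 41.8, with its highest value in the left library of L49-3.

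The membrane peptidases varied less between libraries, relative to their level, than *Spink1*. *Cpm*, carboxypeptidase M, had 188 ± 18.4 normalized counts and the smallest spread of the 33 genes, with a coefficient of variation of 9.78% where counting alone gives 7.46%. *St14*, which encodes matriptase, ranged from 51.5 to 71.7, and its spread of 12.1% was no larger than the 13.1% from counting. *Tmprss2*, another membrane serine protease, ranged from 34.9 to 66.0, a spread of 19.8% against 13.7% from counting. *Spink1*, a secreted trypsin inhibitor, ranged from 13.9 to 69.3.

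The transcription factors of the endoderm were present at lower counts. *Foxa1* was at 64.9 and 103, 60.0 and 94.98, 76.5 and 55.8, and 89.8 and 44.9, so that the right library was the higher one in 2 embryos and the lower one in the other 2. *Foxa2* was at 43.8 and 43.3, 33.9 and 27.7, 17.1 and 34.3, and 29.4 and 56.5, and *Foxa3* had 34 reads in all. Which tissue gave the *Foxa2* reads was not tested, and its sides are set beside those of notochord genes below. *Foxa1* and *Foxa2* share a stretch of at least 90% identity over 100 bases, which could exchange some reads. *Hhex*, needed for liver and thyroid buds, ranged from 29.9 to 84.2, *Prox1*, a factor of the liver bud and lymphatics, from 21.7 to 64.4, and *Nkx2-3*, a pharyngeal and gut factor, from 23.5 to 63.2. *Sox17*, a factor of definitive endoderm and also of endothelium, stayed between 13.0 and 29.4, a spread of 23.3% that counting alone also gives (23.4%).

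Factors of the pharyngeal pouches had reads in all libraries. *Pax9* ranged from 54.8 to 141 and *Pax1* from 12.4 to 36.6. *Nkx2-1*, a factor of thyroid and lung, had 7 reads over the 8 libraries, of which 5 were in the left library of L29-3. The study treated DESeq2-normalized counts under 20 as background, and it also drew a background line at 5.6 normalized read counts. On the normalized counts used here, *Nkx2-1* passed 5.6 in 0 libraries and reached 20 in 0. *Cdx2*, a factor of the hindgut and posterior embryo, had 19 reads, passed 5.6 in 1 library and reached 20 in 0. *Hnf4a*, a factor of visceral endoderm and liver, had 127 reads, passed 5.6 in 5 libraries and reached 20 in 2.

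Among the epithelial regulators, *Esrp1*, a splicing factor of epithelial cells, had 101 ± 18.5 normalized counts, and its paralogue *Esrp2* 9.88 ± 2.51. The reads on *Esrp1* were 8.25 to 17.5 times those on *Esrp2*. *Esrp2* shares 219 exon bases with *Nfatc3* on the other strand, and since the use of strand in counting is not given in the sources used here, its reads are uncertain. *Elf3*, an ETS factor of epithelia, had 80 reads and a mean of 9.27. It passed 5.6 normalized counts in 7 libraries and reached 20, the study's background level for DESeq2-normalized counts, in 0. Among the secreted and peptide genes, *Pyy*, a gut hormone, ranged from 18.3 to 42.1, *Trh*, the precursor of thyrotropin-releasing hormone, from 21.0 to 73.7, and *Nepn* (nephrocan), a foregut matrix protein, from 0 to 8.95 with 26 reads.

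To compare levels between genes, the normalized count was divided by the exon length in kilobases. On this scale *Krt18* (351 ± 63.5) stood above *Krt8* (319 ± 66.2) in 8 of 8 libraries, and *Krt8* above *Cldn6* (150.3 ± 19.2) in 8 of 8. *Ttr*, which encodes the thyroxine carrier transthyretin, followed at 73.4 ± 53.2 and *Epcam* at 71.9 ± 10.3, and these 2 neighbours could not be ordered, *Ttr* being higher in 5 of 8 libraries. *Spink1*, *Pyy* and *Krt19* lay between 45.3 and 59.0, and *Cldn4*, *Trh* and *Cpm* between 31.5 and 36.2. The forkhead factors *Foxa1* and *Foxa2* had 22.2 ± 6.20 and 15.1 ± 5.07, and *Sox17* had 4.20 ± 0.977. Most neighbours in this order overlapped, and a gene stood above the next in all 8 libraries for *Krt18*, *Krt8* and *Tmprss2*. The exon length of a gene is the same in every library, and reads of *Krt8-ps* and *Gm5200* could move either keratin. The 8 libraries therefore do not settle the order of *Krt18* and *Krt8*.

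The question of the design was whether the left heart field differed from the right. No gene of the list passed the threshold of the study, which asks for a 1.2-fold change or more and an unadjusted p no higher than 0.05, in edgeR's quasi-likelihood test blocked by embryo. Of all 9744 genes tested, 297 passed (3.05%). The count of the list was also 0 of 25 at an unadjusted p under 0.05 (4.36% of all genes) and at an adjusted p under 0.05 (0.0103%), and DESeq2 gave 0 at either. With limma-voom, the other tool that the study used with this threshold, 2 of 25 genes passed it, *Esrp1* and *Trh*, beside 3.09% of all genes, and 0 had an adjusted p under 0.05. In 0 of 25 genes did the normalized counts of the 2 sides fail to overlap (2.51% of all genes). The log2 fold change of left over right was positive in 13 genes and negative in 12, with a median of 0.0034, beside -0.0042 over all genes. The smallest adjusted p of a gene of the list was 0.987.

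**Figure D3:**
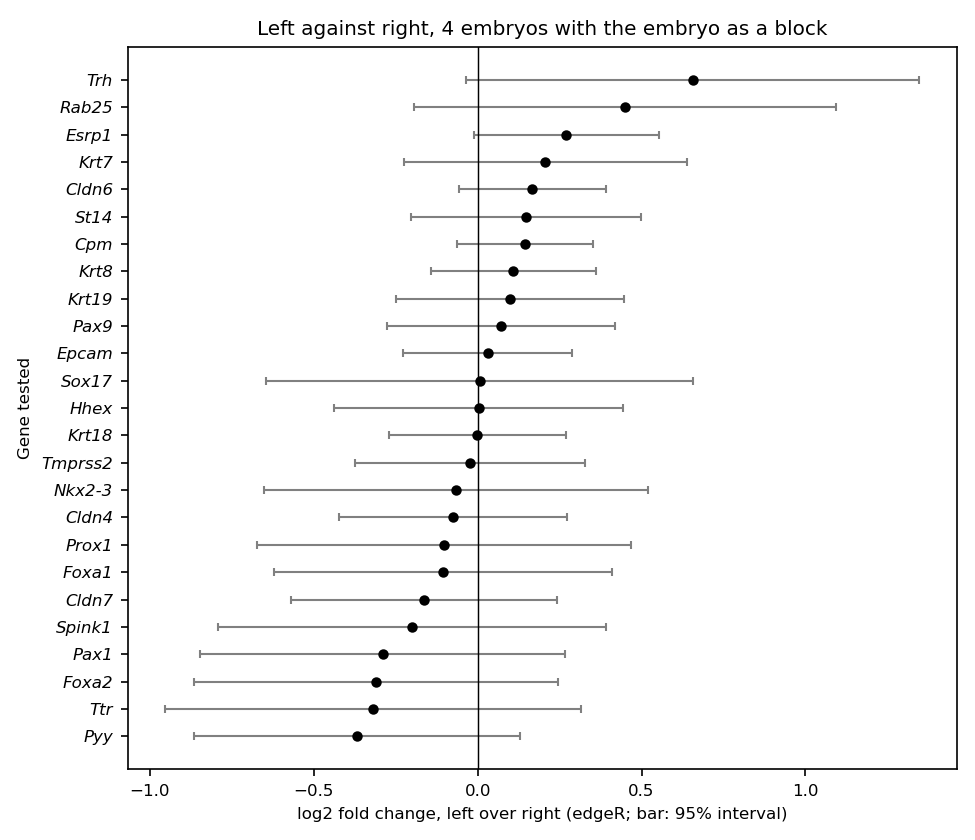
Points are the log2 fold change of left over right of the 25 genes tested with edgeR, and bars are 95% intervals. All bars cross 0, and they are widest for the genes of low count and for *Trh*, *Ttr* and *Spink1*.

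The intervals state what size of difference these pairs leave possible. The 95% interval of the log2 fold change lay within 1 of 0 in 23 of the 25 genes and within 0.5 in 11. *Krt18* had -0.00089 with an interval from -0.27 to 0.27, *Epcam* 0.03 from -0.23 to 0.29, *Krt8* 0.11 from -0.14 to 0.36, and *Cpm* 0.14 from -0.06 to 0.35. *Cldn6* had 0.17 (-0.06 to 0.39). *Foxa1* had -0.11 (-0.62 to 0.41) and *Foxa2* -0.31 (-0.87 to 0.25). The intervals of *Krt8*, *Krt18* and *Epcam* thus ended short of 0.5 in either direction, whereas those of *Trh* and *Rab25* reached past 1.

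The gene with the smallest p was *Esrp1* (ENSMUSG00000040728, chromosome 4, 11331933-11386783). It was at 85.1 and 81.7, 126 and 84.8, 106 and 87.6, and 122 and 116 normalized counts. The left was the higher side in 4 of 4 embryos, the only gene of the 25 with 1 direction in all embryos (12.4% of all genes), but the ranges of the sides overlapped. The log2 fold change was 0.27 (95% interval -0.01 to 0.55), with a p of 0.0586 and an adjusted p of 0.987 (edgeR). *Esrp1* passed the threshold of the study with limma-voom, without L29-3 (0.33) and without L49-3 (0.33), with adjusted p-values of at least 0.956. It did not pass without L43-5, where the log2 fold change was 0.14, nor without L46-8 (0.27).

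*Trh* (ENSMUSG00000005892, chromosome 6, 92242061-92244650) had the largest fold change of the genes of the list that were tested. It was at 47.8 and 21.0, 73.7 and 21.3, 48.8 and 54.6, and 48.0 and 61.5 normalized counts. The left was higher by more than 2-fold in L29-3 and L43-5 and lower in the other 2 embryos. The log2 fold change was 0.66 (-0.03 to 1.35), with a p of 0.0608 and an adjusted p of 0.987 (edgeR), and *Trh* passed the threshold of the study with limma-voom. It also passed without L46-8 (0.97) and without L49-3 (0.95), but the value fell to 0.17 without L43-5 and was 0.52 without L29-3, neither past the threshold. *Shh*, the hedgehog ligand of ventral foregut and notochord, was at 39.7 and 18.6, 43.7 and 12.3, 13.0 and 17.8, and 32.5 and 39.9, and so was higher on the same side as *Trh* in each embryo. The summed genes of the notochord, node and floor plate, *Shh* included, had that side as well, at 257 and 171, 307 and 202, 162 and 233, and 266 and 314. Of the list, *Foxa2* and *Cldn3* were also higher on that side in each embryo. The gap of *Foxa2* was slight in L29-3, at 43.8 and 43.3, and *Cldn3* had 36 reads in all. The part of the notochord, node and floor plate genes in the values of *Trh*, *Foxa2* and *Cldn3* was not tested.

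For *Pyy* the right library was the higher one in 3 of 4 embryos, with a log2 fold change of -0.37 (-0.86 to 0.13). *Rab25* was the higher on the left in 3 of 4, with 0.45 (-0.19 to 1.09), and passed the threshold when L46-8 was left out (0.72), whereas it was 0.30 without L29-3 and without L49-3 and was too low to be tested without L43-5. *Spink1* and *Ttr* had values of -0.20 and -0.32, which turned to -0.68 and -0.76 in edgeR without L43-5, both then past the threshold of the study but with adjusted p-values of at least 0.969. Without L29-3 both turned positive, to 0.0637 and 0.27. Among the genes too low to be tested, *Elf3* was higher on the right in 4 of 4 embryos, at 5.67 and 9.90, 6.52 and 10.7, 10.6 and 17.8, and 3.10 and 9.97. *Cdx2* had 3 left reads and 16 right ones, the latter spread over 3 embryos. Fitted by edgeR without the filter, *Elf3* had a log2 fold change of -0.84 and *Cdx2* of -2.29, both past the threshold of the study, with adjusted p-values of 0.997.

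The libraries of the same embryo allowed a second comparison, of the embryos with each other. With the side as a covariate, 0 of 25 genes had an adjusted p under 0.05 in edgeR's F test (0.174% of all genes), and *Krt7*, *Krt8*, *Pax1*, *Pax9* and *Ttr* had an unadjusted p under 0.05, 5 of 25 genes beside 9.99% of all genes. The smallest p was that of *Ttr*, 0.000127, with an adjusted p of 0.0559. This call depended on the setting, the adjusted p being 0.000242 with DESeq2, 0.0447 without the side as a term, 0.0925 with limma-voom and 1.52e-34 with no filter. The fit with no filter gave 641 of 23873 genes an adjusted p under 0.05, against 17 of 9744 with the filter. Its value is therefore not on a par with the others. The adjusted p of *Ttr* was 0.000188, 0.0179 and 0.00691 without L29-3, L43-5 and L46-8, and 0.996 without L49-3 (edgeR).

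*Ttr* was at 57.6 and 186, 134 and 101, 109.9 and 101, and 3.10 and 3.32 normalized counts, the last pair, from L49-3, resting on 2 reads in each library. Both L49-3 libraries lay far below all the others, and the right library of L29-3 was the highest. The level in L49-3 was 35.9-fold lower than the mean of the other 3 embryos, with an exact Poisson interval from 14.0 to 132 that covers counting error only. *Spink1* was at 36.5 and 69.3, 66.5 and 41.1, 39.9 and 47.0, and 13.9 and 29.9, and so was also lowest in L49-3. *Hnf4a* was at 2.43 and 21.0, 18.3 and 20.3, 19.5 and 15.2, and 4.64 and 3.32, with the left library of L29-3 as low as those of L49-3.

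Markers of the visceral endoderm, an extraembryonic epithelium that secretes apolipoproteins and also expresses *Ttr* and *Hnf4a*, were set beside these values. Of 12 markers, 6 were tested. The sum of all 12 was 186 and 1092, 992 and 685, 676 and 774, and 29.4 and 48.2 in the pairs, so that both L49-3 libraries were lowest and the left library of L29-3 was the next. *Afp*, *Amn* and *Apoa2* were at 0 in both L49-3 libraries, and *Alb* and *Apoc2* in all 8. *Spink1* was higher on the same side as the sum in 4 of 4 embryos, *Ttr* in 3 of 4 and *Hnf4a* in 1 of 4. *Krt19* and *Cldn7* were also on the side of the sum in 4 of 4. The part of the visceral endoderm markers in the values of *Ttr*, *Spink1* and *Hnf4a* was not tested.

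**Figure D4:**
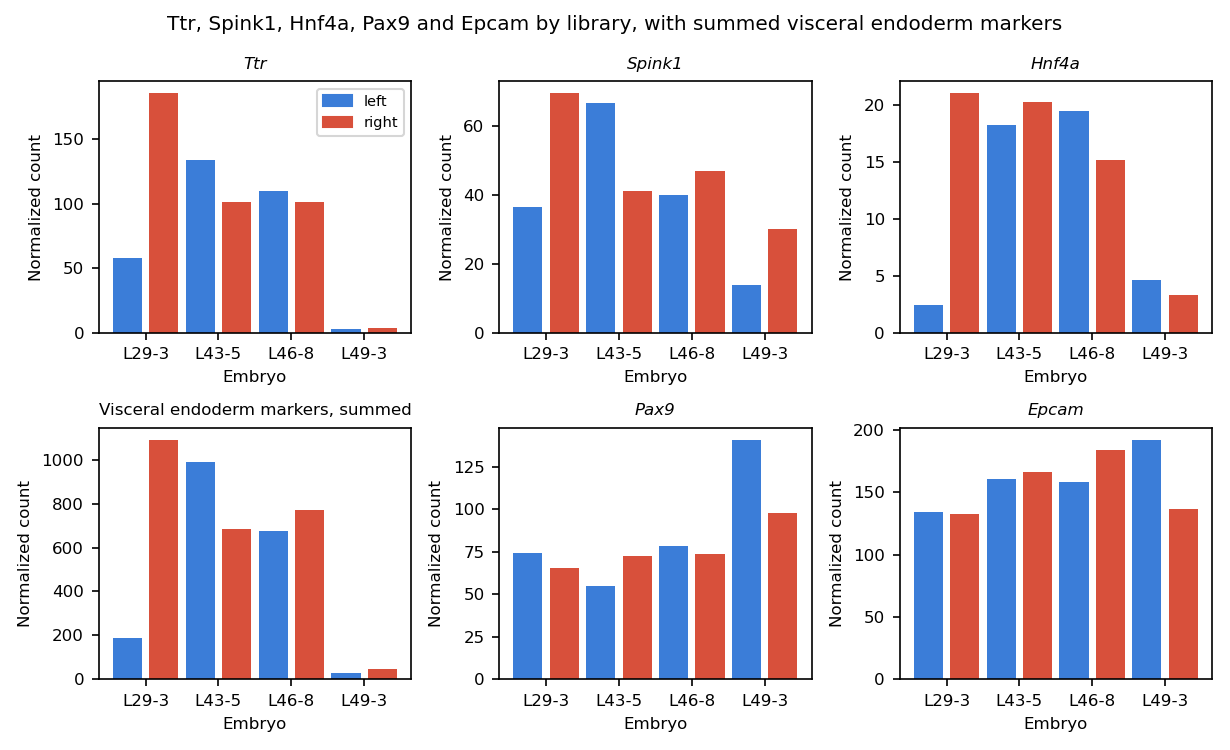
Bars are the normalized count of each library, blue for left and red for right, grouped by embryo, for 5 genes of the list and for the sum of 12 visceral endoderm markers. *Ttr* and the summed markers are near 0 in L49-3, *Pax9* is highest there, and *Epcam* lies between 132 and 192 in all 8 libraries.

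In 7 of the 25 genes tested, *Cpm*, *Hhex*, *Krt7*, *Krt8*, *Spink1*, *Tmprss2* and *Ttr*, both L49-3 libraries were below the other 6, as they were in 9.44% of all genes, and no test was run on the difference. For *Cpm* the gap was slight, 168.8 and 169.5 in L49-3 against 170.7 in the next. *Krt7* had 26.3 and 16.6 against 30.9 to 45.6. *Tmprss2* had 43.4 and 34.9 against 50.3 to 66.0, and *Hhex* 43.4 and 29.9 against 44.4 to 84.2. The summed endothelial markers were also lowest there, at 678 and 525 against 812 to 919, and the cardiomyocyte markers were at 841 and 2709 in L49-3 against 2335 to 6732. The opposite was seen in 2 genes (7.83% of all genes), *Pax9* and *Rab25*, the second by a slight gap, 21.6 being the lower L49-3 value and, after rounding, also the next. *Pax9* was at 74.6 and 65.6, 54.8 and 72.6, 78.1 and 73.6, and 141 and 98.0, with an unadjusted p among embryos of 0.00860 and an adjusted p of 0.268 (edgeR). *Pax9* shares repeat-like stretches with 149 other genes, which could add or remove reads. Other tissues were also different in L49-3. *Tbx5* of the heart field was at 20.1 and 19.9 there against 89.97 to 164 in the other libraries. *Isl1* of the same marker list went the other way, at 146 and 170 against 91.6 to 123. Summed, the heart field genes were at 948 and 1215 in L49-3 against 1147 to 1777. *Gata4*, a factor of mesoderm and endoderm, was at 20.1 and 71.5 there against 173 to 335. Neural tube genes were highest there, their sum being 817 and 912 against 311 to 693, as was *Sox2*, a factor of the anterior foregut and neural tube, at 197 and 153 against 63.5 to 111. The part of these markers in the values of the list was not tested. For L29-3, *Cldn4* and *Epcam* had both libraries below the other 6 (4.13% of all genes), with *Cldn4* at 57.6 and 47.0 against 59.4 to 85.4.

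The spread between libraries can be set against the spread that counting alone gives. It was more than 2 times as large in *Krt8*, *Krt18*, *Cldn6*, *Ttr*, *Pax9*, *Foxa1*, *Hhex*, *Trh*, *Spink1*, *Prox1*, *Hnf4a* and *Nepn*. It was no larger in *St14*, *Sox17* and *Esrp2*. The share of all genes with such a spread was not computed, so these spreads cannot be called a trait of the list. *Ttr* stood highest above counting as a ratio, with a coefficient of variation of 72.4% where counting gives 10.3%, and *Krt8* had 20.8% against 4.02% and *Krt18* 18.1% against 4.503%. *Trh* had 38.6% against 15.2%, and *Pax9* 32.4% against 11.8%.

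**Figure D5:**
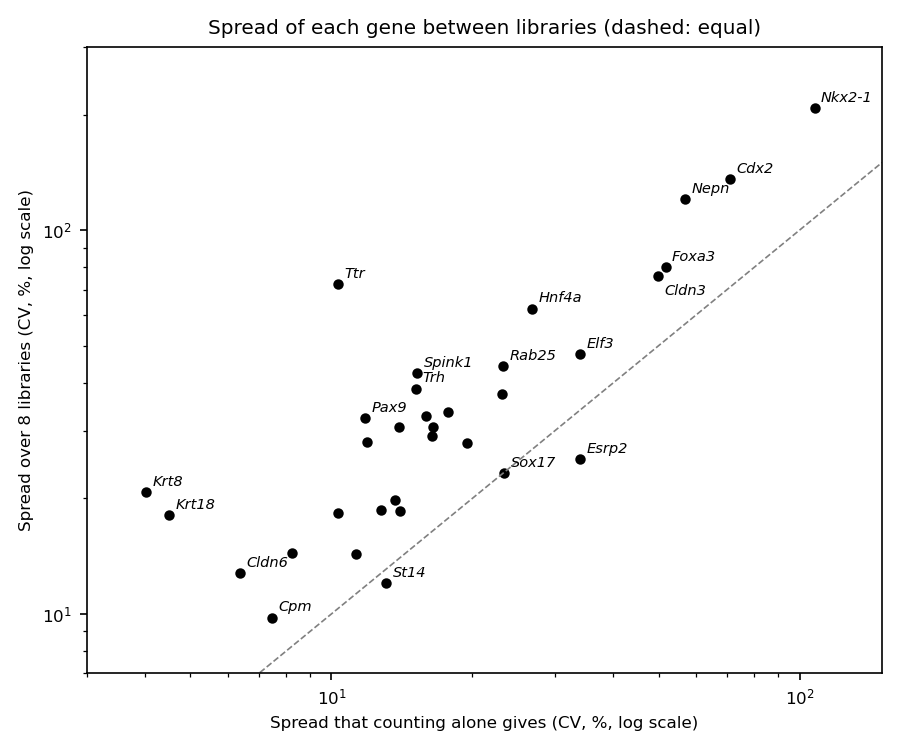
Each point is a gene of the list, with the coefficient of variation that counting alone gives on the horizontal axis and the measured one over 8 libraries on the vertical axis, both in percent on log axes. Points on the dashed line vary no more than counting gives, *Ttr* stands highest above it at 72.4%, and *Cpm* has the smallest spread at 9.78%.

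Other genes of endoderm and epithelia were looked at as 2 further lists. Of 25 further endoderm genes, 13 were tested and 0 passed the threshold of the study in either direction, and of 45 further epithelial genes, 26 were tested and 0 passed, where 3.05% of all genes did. The sums ranged from 1434 to 1952 and from 4451 to 4957 normalized counts, and the median log2 fold changes were -0.03 and 0.02. Some single endoderm genes varied more than their sum, *Gata4* from 20.1 to 335 and *Sox2* from 63.5 to 197, whereas *Foxp4* stayed between 397 and 531. *Cd24a*, at 1415 to 1787, was the largest part of the epithelial sum. Among the endoderm genes with the smallest p in edgeR were *Shh* (log2 fold change 0.71, SE 0.36) and *Pax8*, a thyroid factor (0.44, SE 0.24), each with an adjusted p of 0.987. For the epithelial genes edgeR gave the smallest p to the claudin gene *Cldn12* (0.20, SE 0.13), the polarity gene *Crb3* (-0.43, SE 0.28) and the periplakin gene *Ppl* (-0.29, SE 0.23), also with an adjusted p of 0.987. The count of these 2 lists together rose from 0 to 5 with no filter (2.88% of all genes) and to 6 without L46-8 (3.96%). *Shh* was among the genes in both.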

How the data were processed

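RNA of 8 heart field libraries was sequenced as oriented poly-A libraries. The authors deposited counts of reads per gene, not normalized, made by aligning to GRCm38 with HISAT2, excluding duplicate reads and counting with featureCounts. Tool versions and strand use are not given in the sources used here. Symbols, exon lengths and positions came from GENCODE vM21 of GRCm38, which named 48144 of 48526 identifiers. Total counts of 1147446 to 3520753 set the precision, and 0 reads leave room for up to 3 counts.

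Sides were compared with edgeR 4.0.16 (R 4.3.3), with TMM normalization, the quasi-likelihood test and the embryo as a block, on 9744 genes with at least 20 DESeq2-normalized counts (DESeq2 1.42.0) in at least 4 libraries. Genes under this filter held 2.31% of reads. Adjusted p-values are Benjamini-Hochberg values over all genes tested. Embryos were compared by an F test with the side as covariate, in which the 2 libraries of an embryo stand for its replicates, so that p-values measure the spread within embryos. The side of each library and its embryo came from the labels, and both sides of an embryo are paired as tissue of 1 animal. Deviations of the 2 sides correlated at 0.165, 0.19, -0.02 and 0.438. No 2 libraries were alike within sampling noise (smallest chi-square per degree of freedom 1.93). Every gene of the list was named, and from each further list the 3 tested genes with the smallest p; 1 gene that this rule names is not reported here. The genes and lists were chosen with earlier results of these data known. Promoter windows are from RefSeq, and near-identical genes are those with at least 90% identity over 100 bases.

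The alternatives were DESeq2 size factors, no filter, DESeq2, limma-voom (limma 3.58.1), no embryo block and each embryo left out. The test of sides was tested on simulated data, in which it recovered 100% of 200 genes changed 4-fold (log2 of 2) among 9744, with 10 false calls, and the test among embryos 92%, with 2.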

Additional observations from a re-analysis of the deposited data

Results flagged for a closer look

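Of 83 groups of 4 libraries of the same side, 4 had 1 library set apart from the other 3 by Dixon's criterion, and chance gives about 1 in 20. *Trh* on the left was at 73.7 normalized counts in L43-5, with the others at 47.8 to 48.8. *Elf3* on the right was at 17.8 in L46-8, with the others at 9.90 to 10.7, and its counts are low. *Esrp1* on the right was at 116 in L49-3, with the others at 81.7 to 87.6. The summed endothelial genes on the right were at 525 in L49-3, with the others at 817 to 864.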

How the results depend on the processing

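No gene of the list had an adjusted p under 0.05 for the sides under any of the 9 alternatives, the smallest being 0.279 (*Trh*, no filter, edgeR). Genes past the threshold of the study rose from 0 to 4 of 33 with no filter (*Cdx2*, *Elf3*, *Esrp1*, *Trh*), beside 2.88% of all genes. They rose to 2 of 25 with limma-voom (*Esrp1*, *Trh*), beside 3.09%. With 1 embryo left out they rose to between 1 and 2, beside 2.86% to 3.96%. In the further lists they rose to 5 of 69, to 1 of 39 and to between 1 and 6 in these settings, beside the same shares. The median log2 fold change of the list ranged from -0.068 to 0.10 with 1 embryo left out. Without the embryo block, the count past the threshold stayed at 0, the median was 0.01 and no call changed. For differences among embryos, 7 of 33 genes had an adjusted p under 0.05 in edgeR with no filter, beside 641 of all 23873 genes. They were *Hnf4a*, *Krt18*, *Krt8*, *Nepn*, *Pax9*, *Spink1* and *Ttr*. The count was 1 (*Ttr*) with DESeq2, beside 51 of 9744 genes, and 1 (*Ttr*) without the side term, beside 17 of 9744. With 1 embryo left out it was between 0 and 1, beside 0 of 10166 to 237 of 9803 genes. The cause of these changes was not tested. The sign of the log2 fold change turned under some setting in 15 of 25 genes, none of them past the threshold with all 4 embryos, although *Spink1* and *Ttr* passed it without L43-5. *Krt18* had 0.00152 with DESeq2 size factors, 0.0128 with no filter, 0.0268 with limma-voom and 0.0109 without the block, and with limma-voom *Sox17* had -0.0449 and *Hhex* -0.0538. With 1 embryo left out, the range was -0.34 to 0.16 in *Foxa1*, -0.19 to -0.0403 in *Sox17*, -0.0868 to 0.12 in *Epcam*, -0.00569 to 0.24 in *Krt8*, -0.16 to 0.13 in *Krt18*, -0.13 to 0.18 in *Krt19*, -0.177 to 0.0955 in *Cldn4*, -0.32 to 0.0332 in *Cldn7*, -0.355 to 0.21 in *Nkx2-3*, -0.17 to 0.23 in *Hhex*, -0.38 to 0.11 in *Prox1*, -0.76 to 0.27 in *Ttr*, -0.68 to 0.0637 in *Spink1*, -0.0824 to 0.0395 in *Tmprss2* and -0.068 to 0.26 in *Pax9*. It was 0.17 to 0.97 in *Trh*, 0.14 to 0.33 in *Esrp1* and 0.30 to 0.72 in *Rab25*, which kept their sign. *Sox17* was too low to be tested without L29-3 or without L43-5, and *Rab25* without L43-5, so their ranges rest on the other fits. The 8 genes that were not tested had between 7 and 127 reads each, and the part of depth in this was not tested.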
